A study of Mus musculus with 18 samples.

Results

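Genes that mark lymphatic vessels, or that carry the signal by which such vessels grow, were followed in the mouse heart after radiation. These were Prox1, Flt4, Vegfc, Vegfd, Ccl21a, Mmrn1, Reln and Pdpn, taken by gene symbol, 8 of the 30072 genes in the tables, and each had 1 row. RNA came from the septum of the heart, as the labels have it (ventricular tissue in the methods of the study), of outbred CD-1 mice, male and female littermates of at least 8 weeks of age. There were 18 mice in 3 groups of 6. Control mice (ctrl) were sham-treated: by the methods of the study they had isoflurane and imaging by computed tomography, but no treatment dose. The labels give no interval for them. The other groups received a single dose of 25 Gy under isoflurane and were taken 2 weeks (2wk) or 6 weeks (6wk) post-IR. The labels call the radiation gamma rays, where the methods describe X-rays aimed at the heart by computed tomography. No sex is given for single mice, and no group carries a transgene.

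Lymphatic capillaries drain fluid and leukocytes from the tissue and are lined by an endothelium of its own identity. PROX1 is the transcription factor that sets and keeps this identity. VEGF-C and VEGF-D are secreted as precursors, are cut by proteases, and then act on the receptor VEGFR-3, the product of Flt4. CCL21 draws dendritic cells that carry CCR7 to the vessel, reelin and multimerin-1 are proteins that lymphatic endothelium secretes, and podoplanin is a membrane protein that binds CLEC-2 on platelets. No gene of the group belongs to lymphatic cells alone. Prox1 is also known from cardiomyocytes, Flt4 from some blood capillaries, Mmrn1 from platelets, Ccl21a from lymph node stroma and thymus, and Pdpn from mesothelium and some fibroblasts. In whole tissue, fewer cells of a type and less RNA per cell cannot be told apart.

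At 6 weeks post-IR, transcripts of Ccl21a, Mmrn1 and Reln were between 1.76 and 2.10 times less abundant than in controls, while Flt4 was 1.30 times more abundant. Prox1 was 1.32 times less abundant on the same scale. That fall was not seen in TPM, a measure within each mouse that is scaled for transcript length, and in TPM Mmrn1 was not called either. TPM also placed the median gene 0.29 higher at 6 weeks than in controls, on the log2(TPM + 1) scale. Relative to that median, Prox1 was at −0.26 and Mmrn1 at −0.55. Vegfc, Vegfd and Pdpn did not pass the test, and at 2 weeks none of the 8 genes did.

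Ccl21a is shown first as sequence, because near-identical copies of it lie in the same region of chromosome 4. The copies with a row in the tables were Ccl21b, Gm10591, Gm13304 and Gm21541. In the annotation (GENCODE M21 on GRCm38), each has the same 402 coding bases as Ccl21a except for T84A and C194T, where the first letter is the base of Ccl21a, the number counts from the first coding base and the last letter is the base of the copy. The stretch of coding exon around the latter is given from chr4:42773513-42773548 (minus strand) for Ccl21a and from chr4:42115229-42115264 (plus strand) for Gm13304, with the differing base in capitals. Over these 36 bases, Gm21541, Ccl21b and Gm10591 read as Gm13304 does.
Ccl21a: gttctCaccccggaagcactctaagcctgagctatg
Gm13304: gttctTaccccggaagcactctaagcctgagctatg

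Of the 840 distinct 31-base words in the Ccl21a transcript, 80.6% occur in a copy. How many reads were ambiguous was not measured. The estimated count of Ccl21a was a whole number in 0 of 18 mice (within 0.01). For Prox1, Mmrn1, Reln, Flt4, Vegfc and Vegfd it was whole in 18 of 18, and at most 0.657% of their 31-base words were found in another gene on the same strand. The copies together held between 0.0159% and 5.93% of the reads of the family (median 2.79%), almost all under Gm13304, and Ccl21b and Gm10591 were listed at 0 in every mouse.

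The promoters of Ccl21a and Reln are shown because both genes were lower at 6 weeks while these sequences differ in composition. Given are the 250 bases before the RefSeq start site on GRCm38.p6, at chr4:42773992-42774241 (minus strand) for Ccl21a and chr5:22344706-22344955 (minus strand) for Reln. The window of Mmrn1 is not shown, since GENCODE gives that gene an earlier start and places the window in an intron. Capitals mark motifs of core promoters, which are the TATA box TATAAA, the CAAT box CCAAT and the GC box GGGCGG, each sought on both strands, and none overlapped another in these windows.
Ccl21a: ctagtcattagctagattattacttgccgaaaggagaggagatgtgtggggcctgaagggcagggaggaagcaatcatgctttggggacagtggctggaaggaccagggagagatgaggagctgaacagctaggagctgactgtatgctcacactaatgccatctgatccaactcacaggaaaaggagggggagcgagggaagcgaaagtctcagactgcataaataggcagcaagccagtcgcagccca
Reln: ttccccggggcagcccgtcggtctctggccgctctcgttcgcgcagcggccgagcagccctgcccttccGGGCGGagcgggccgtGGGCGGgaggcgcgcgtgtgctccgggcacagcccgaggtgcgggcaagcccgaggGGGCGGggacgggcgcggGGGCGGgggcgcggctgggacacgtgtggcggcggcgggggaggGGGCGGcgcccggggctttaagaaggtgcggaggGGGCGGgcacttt

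The Reln promoter held 6 copies of GGGCGG and 37 CpG dinucleotides, and Ccl21a held none of these motifs and 4 CpG. Among 32851 promoters of this length, 32.7% held GGGCGG, 33.85% CCAAT and 12.4% TATAAA, and the median was 6 CpG. The match is to letters only.

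Estimated counts summed to between 11522987 and 15501019 per mouse (median 13682449), and 3 counts, the number taken as the floor of detection, correspond to between 0.179 and 0.278 CPM, which relates the count of a gene to the total of its mouse. The trimmed mean of M-values (TMM), which scales mice by the genes they share, gave factors between 0.844 and 0.991 in controls, 0.962 and 1.03 in the 2wk group and 1.04 and 1.13 in the 6wk group. Mitochondrially encoded genes held a median of 23.2%, 20.2% and 17.4% of counts. Scaling by library size alone shifted the middle of the 15054 genes tested, whose median log2 fold change then went from −0.02 to 0.24 for 6wk against ctrl and from 0.00 to 0.15 for 2wk against ctrl. Counts of genes called with library size alone carry that shift, and the share of all genes called in each direction under it was not computed. CPM values below are TMM-normalized, and tests are edgeR's quasi-likelihood test with Benjamini-Hochberg adjustment over all genes tested. The floor covers counting error only, while the 95% intervals below come from the fit and include the spread between mice.

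All 8 genes passed the filter on low counts. At 2 weeks post-IR, 0 of 8 had an adjusted p under 0.05 by edgeR's quasi-likelihood test, against 5.02% of all genes tested (3.09% higher and 1.93% lower). At an unadjusted p under 0.05 there were 2, Prox1 and Flt4, but the share of all genes at that threshold was not computed. DESeq2 and limma's voom each called 0. At 6 weeks, 5 of 8 were called against controls, where 25% of all genes were. Of these, 1 was higher (background 13.5%) and 4 were lower (background 11.5%). From 2 to 6 weeks, 3 of 8 were called, where 5.33% of all genes were. All 3 were lower (background 2.01%) and none higher (background 3.31%). The groups did not overlap for 1 gene in each comparison, Flt4 at 2 weeks, Reln at 6 weeks and Ccl21a between the time points, against 3.24%, 9.23% and 3.54% of all genes. The median log2 fold change over the 8 genes was −0.01, −0.29 and −0.30 in the 3 comparisons, in that order, beside 0.00, −0.02 and 0.00 over all genes tested. The comparisons at 2 and 6 weeks share the same control mice.

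**Figure D1:**
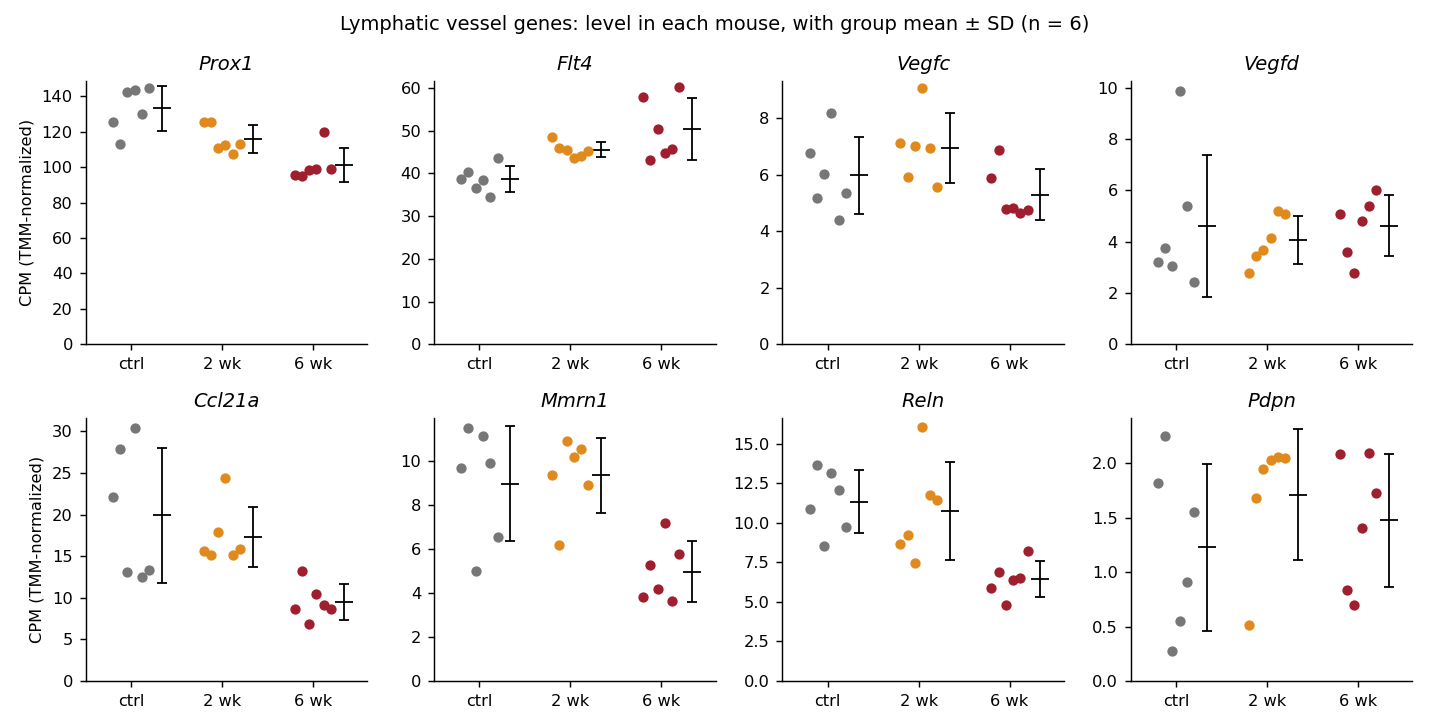
Level of each lymphatic vessel gene in TMM-normalized CPM (vertical axis, from 0) in every mouse, by group (ctrl, 2 wk, 6 wk), with the group mean ± SD at the right of the points (n = 6). The 6 wk mice sit below all controls for Reln and below all 2 wk mice for Ccl21a, and all 2 wk mice sit above all controls for Flt4.

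Prox1 (chromosome 1, 190118035 to 190170714, minus strand of GRCm38) encodes the transcription factor of lymphatic identity. In controls its level ran from 113.0 to 145.0 CPM, with a median of 136.3. At 2 weeks post-IR it ran from 107.6 to 125.8 (median 113.0), and in the 6wk group from 94.9 to 120.1 (median 98.5). At 6 weeks, 5 of 6 mice lay between 94.9 and 99.3 CPM, below every control, and the remaining mouse, replicate 5, overlapped the control with the lowest value. Prox1 was lower at 6 weeks by edgeR, at −0.40 on the log2 scale (SE 0.0721, adjusted p = 0.000541), but log2(TPM + 1) turned the sign to 0.02 (adjusted p = 0.811, limma) and library size alone gave −0.14 (adjusted p = 0.132, edgeR). Its TPM medians were 20.2, 20.7 and 20.4 in the 3 groups. Relative to the median gene, Prox1 was lower by each scaling, at −0.38 with TMM, −0.38 with library size, −0.26 with log2(TPM + 1) and −0.34 with log2(TPM + 0.1). At 2 weeks it had −0.20 (edgeR, SE 0.0719, adjusted p = 0.115), and from 2 to 6 weeks −0.20 (edgeR, SE 0.072, adjusted p = 0.116).

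Markers of cardiomyocytes, which also express Prox1, moved the same way. At 6 weeks 8 of 10 were lower with TMM (background 11.5%) and 0 higher (background 13.5%), where library size alone left 1 lower and 0 higher. Their summed level was between 78245 and 86892 CPM, where it was between 87621 and 116178 in controls and between 94563 and 108899 at 2 weeks. The largest change was in Ryr2, the calcium release channel, at −0.60, and the summed ranges at 6 weeks and in controls did not overlap. Most of that sum came from 1 marker, Ttn, with a mean of 57918 CPM in controls and 48261 at 6 weeks. Ttn itself was not called at 6 weeks (edgeR, adjusted p = 0.113). The part of these cells in the Prox1 result was not tested. The non-coding genes Prox1os and Gm28172 overlap Prox1 on the other strand, and whether the counting used strand is not given in the sources used here.

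Flt4 (chromosome 11, 49609263 to 49652739, plus strand) encodes VEGFR-3, the receptor of VEGF-C and VEGF-D. Its level was between 34.5 and 43.6 CPM in controls (median 38.7), between 43.7 and 48.6 in the 2wk group (median 45.4) and between 43.1 and 60.4 in the 6wk group (median 48.1). Every mouse at 2 weeks was above every control, and at 6 weeks 1 mouse fell just under the highest control. Flt4 was the only one of the 8 genes called higher, at 6 weeks by 0.38 on the log2 scale (SE 0.081, adjusted p = 0.00201, edgeR). It was called higher at 6 weeks under each of the other models and scalings tried. At 2 weeks the value was 0.23 (SE 0.0811, adjusted p = 0.106, edgeR). That comparison passed with library size alone (0.39, edgeR, adjusted p = 0.0116) and in TPM (0.39 on the log2(TPM + 1) scale, limma, adjusted p = 0.0164). Relative to the median gene, Flt4 was at 0.24 and 0.21 there, beside 0.23 with TMM. Over all genes tested, 1789 and 2813 were called at 2 weeks under these scalings, in place of 755.

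Of 10 markers of blood endothelium, 5 were also higher at 6 weeks (background 13.5%), 1 was lower (background 11.5%) and 4 were not called. With library size alone 8 were higher and 1 lower. Pecam1, an endothelial adhesion molecule, rose by 0.90 and Cdh5, the endothelial cadherin, by 0.53, while Tek, the angiopoietin receptor, fell by 0.75. Their summed level was 912 to 1115 CPM in controls, 997 to 1158 in the 2wk group and 1153 to 1561 in the 6wk group. The part of blood vessels in the Flt4 result was not tested. Kdr, the receptor VEGFR-2, which also binds processed VEGF-C, had 241.5 ± 22.7 CPM in controls and 240.8 ± 27.6 at 6 weeks (SD, n = 6), a log2 fold change of 0.00 (SE 0.0844, edgeR, adjusted p = 0.981). With library size alone Kdr had 0.26 (edgeR, adjusted p = 0.0275).

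The ligands did not pass the test in any comparison. Vegfc (chromosome 8, 54077606 to 54187096, plus strand) ran from 4.38 to 8.19 CPM in controls (median 5.68), 5.57 to 9.09 in the 2wk group (median 6.99) and 4.67 to 6.87 in the 6wk group (median 4.81). Its log2 fold change was 0.21 at 2 weeks (95% interval −0.12 to 0.54) and −0.17 at 6 weeks (−0.51 to 0.16). From 2 to 6 weeks it was −0.39 (edgeR, SE 0.155, unadjusted p = 0.0216, adjusted p = 0.15). At 6 weeks 4 of 6 mice lay between 4.67 and 4.82 CPM, and the groups overlapped throughout.

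Vegfd (chromosome X, 164373378 to 164402650, plus strand) ran from 2.42 to 9.85 CPM in controls (median 3.47), 2.79 to 5.17 in the 2wk group (median 3.90) and 2.79 to 6.02 in the 6wk group (median 4.95). The control at 9.85 CPM, replicate 4, set most of the spread. The log2 fold change at 6 weeks was −0.02 (95% interval −0.63 to 0.59, edgeR). Without that mouse it was 0.37 (adjusted p = 0.257). At 2 weeks it was −0.20 (−0.82 to 0.41), and 0.18 without that mouse. These intervals leave room for a change of about the size seen in Flt4 in either direction.

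Ccl21a (chromosome 4, 42772860 to 42773993, minus strand) encodes the chemokine CCL21. Controls ran from 12.5 to 30.5 CPM (median 17.7), mice in the 2wk group from 15.1 to 24.4 (median 15.7) and mice in the 6wk group from 6.81 to 13.3 (median 8.91). The controls were spread widely, with 12.5, 13.0 and 13.3 CPM in 3 mice and 22.1, 27.9 and 30.5 in the other 3. Mice at 6 weeks lay below all mice at 2 weeks, and all but the highest of them, replicate 2, lay below all controls. The log2 fold change at 6 weeks was −1.07 (SE 0.227, adjusted p = 0.00191, edgeR), the largest of the 8 genes, and −0.58 on the log2(TPM + 1) scale (limma, adjusted p = 0.0451). Summed with its 4 copies it was −1.05 (edgeR, adjusted p = 0.00153). From 2 to 6 weeks it was −0.87 (SE 0.227, adjusted p = 0.0347, edgeR). That last call was lost in 9 of the 12 fits that left out 1 mouse of either group (edgeR, adjusted p between 0.0207 and 0.0827 over all 18 fits that left out 1 mouse), and in TPM (limma, adjusted p = 0.0734). With library size alone (−0.76, edgeR) the call was lost too. Ccl21a also overlaps a coding gene on the other strand, 4930578G10Rik.

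Lymph node and thymus, other sources of Ccl21a, were looked for by their markers. Of 8 lymph node genes, Ccl19, Cxcl13, Madcam1, Glycam1, Ms4a1 and Tnfsf11 were below the filter, and the highest count of any of them in a mouse was 14. The summed level was 0.832 to 1.24 CPM in controls, 0.722 to 2.85 in the 2wk group and 0.402 to 2.56 in the 6wk group. Of 9 thymus genes 8 were below the filter, with 1 at 0 in every mouse and 8 counts at most. The thymus sum was 0.463 to 1.32 CPM in controls, 0.44 to 1.47 in the 2wk group and 1.66 to 3.17 in the 6wk group, above both others. Cd4, the 1 gene tested, had 0.785 ± 0.266 CPM in controls and 1.43 ± 0.613 at 6 weeks (SD, n = 6, edgeR, adjusted p = 0.0821). No gene of either list was called with TMM, and with library size alone 1 of each was higher at 6 weeks. Ccr7, the receptor of CCL21 on dendritic and T cells, had 0.115 ± 0.121 CPM in controls and 0.353 ± 0.136 at 6 weeks (SD, n = 6; log2 fold change 1.56, edgeR, adjusted p = 0.0671). Ackr4, which removes CCL21, had 7.90 ± 1.73 and 7.08 ± 1.16 (edgeR, adjusted p = 0.49).

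Mmrn1 (chromosome 6, 60924976 to 60989378, plus strand) encodes multimerin-1. It ran from 5.0 to 11.5 CPM in controls (median 9.80), 6.18 to 10.9 in the 2wk group (median 9.80) and 3.62 to 7.19 in the 6wk group (median 4.73). The medians of controls and of mice at 2 weeks were alike, and 5 of the 6 mice at 6 weeks had less than the lowest mouse at 2 weeks, and the lowest controls overlapped with them. The log2 fold change was −0.86 against controls (SE 0.208, adjusted p = 0.00507) and −0.92 against 2 weeks (SE 0.206, adjusted p = 0.0194, edgeR). With limma on log2(TPM + 1) these were −0.26 (adjusted p = 0.155) and −0.49 (0.0551). Set against the median gene on that scale, Mmrn1 had −0.55 and −0.60, beside −0.84 and −0.92 with TMM. Platelet and megakaryocyte markers, such as Pf4 and Itga2b, gave no call among the 5 of 8 tested. Their sum was 9.44 to 17.2 CPM in controls, 11.3 to 17.5 in the 2wk group and 11.9 to 18.9 in the 6wk group, and Gp9, Gp6 and Treml1 were below the filter with at most 4 counts. Mmrn2, the relative of Mmrn1 found in blood endothelium, had a log2 fold change of 0.72 at 6 weeks (SE 0.305, edgeR, adjusted p = 0.0959).

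Reln (chromosome 5, 21884454 to 22344702, minus strand) encodes reelin, and 7 other annotated genes overlap it, 4 of them on the other strand and none of those 4 coding. Controls ran from 8.51 to 13.7 CPM (median 11.5), mice in the 2wk group from 7.44 to 16.1 (median 10.3) and mice in the 6wk group from 4.80 to 8.20 (median 6.45). Every mouse at 6 weeks was below every control, while at 2 weeks 1 mouse, at 7.44 CPM, lay within the range of the 6wk group and the others above it. The log2 fold change was −0.82 against controls (SE 0.175, adjusted p = 0.00201, edgeR) and −0.32 on the log2(TPM + 1) scale (limma, adjusted p = 0.0388). Against 2 weeks it was −0.74 (SE 0.174, adjusted p = 0.0221, edgeR). That call was lost in TPM (adjusted p = 0.366, limma), and without replicate 4 at 2 weeks (−0.59, edgeR, adjusted p = 0.0526) or replicate 3 at 6 weeks (−0.67). Of the reelin receptors, Vldlr, which is abundant in heart muscle, fell from 388.3 ± 32.5 to 310.9 ± 31.3 CPM (SD, n = 6; log2 fold change −0.32, adjusted p = 0.00458, edgeR), though with library size alone it had −0.06 (edgeR, adjusted p = 0.556). Lrp8, the other receptor, had 0.871 ± 0.645 and 2.00 ± 1.5 CPM (edgeR, adjusted p = 0.0981). Dab1, the adaptor inside the cell, was below the filter.

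Nerve and Schwann cell markers were followed because reelin is known from neurons. Of 5 tested, 1 was lower at 6 weeks (background 11.5%): Dbh, the enzyme of noradrenaline synthesis, at −0.70. With library size alone, 0 of the list were called. The list summed to 13.7 to 19.2 CPM in controls, 10.2 to 18.7 in the 2wk group and 9.07 to 16.4 in the 6wk group, and Th was below the filter with at most 3 counts. Their part in the Reln result was not tested.

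Pdpn (chromosome 4, 143267431 to 143299564, minus strand) encodes podoplanin and had the lowest median TPM of the 8 in controls, though not at 2 or 6 weeks, where Reln was lower. Its row held the same counts as another row, ENSMUSG00000096951, in 18 of 18 mice (within 0.01), with fractions such as 7.5, so the reads were shared equally between both rows. That row has no entry in the annotation used here. Together the rows held between 6 and 69 counts per mouse. The Pdpn row ran from 0.278 to 2.25 CPM in controls (median 1.23), 0.514 to 2.06 in the 2wk group (median 1.99) and 0.697 to 2.09 in the 6wk group (median 1.57), and all groups overlapped. The log2 fold change was 0.47 at 2 weeks (95% interval −0.35 to 1.29) and 0.26 at 6 weeks (−0.58 to 1.10). Both intervals hold 0 and a log2 fold change of 1. Summing both rows gave 0.48 and 0.26.

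Mesothelium, fibroblasts and macrophages were measured beside it. Among 7 mesothelial and epicardial genes, 1 was higher at 2 weeks (Upk1b, a uroplakin, background 3.09%). At 6 weeks 1 was higher (Wt1, an epicardial transcription factor, at 0.67, background 13.5%), and Upk3b fell from 2 to 6 weeks (background 2.01%). The sum was 6.73 to 21.4 CPM in controls, 11.1 to 31.8 in the 2wk group and 11.1 to 17.5 in the 6wk group. Among 8 fibroblast genes, Pdgfra, a growth factor receptor, was lower at both times (−0.55 and −0.88, background 1.93% and 11.5%) and no other gene was called. The fibroblast sum was 1166 to 3924 CPM in controls, 1892 to 2186 in the 2wk group and 1503 to 2175 in the 6wk group. Among 9 macrophage genes, C1qa was higher at 2 weeks (background 3.09%), and at 6 weeks 5 were higher (background 13.5%) and 1, Cd163, lower (background 11.5%). The macrophage sum was 120 to 292 CPM in controls, 191 to 241 in the 2wk group and 245 to 344 in the 6wk group. Of 8 atrial and conduction genes tested, the pacemaker channel Hcn4 and the adhesion molecule Cntn2 were lower in the 6wk group (background 11.5%). The atrial sum ran from 316 to 1643 CPM in controls, 208 to 1313 in the 2wk group and 127 to 744 in the 6wk group. With library size alone, 7 macrophage genes were higher and 1 lower at 6 weeks, 1 fibroblast gene was higher and 1 lower, and of the atrial genes 1 was higher and 0 lower. The part of these cells in the 8 genes was not tested.

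**Figure D2:**
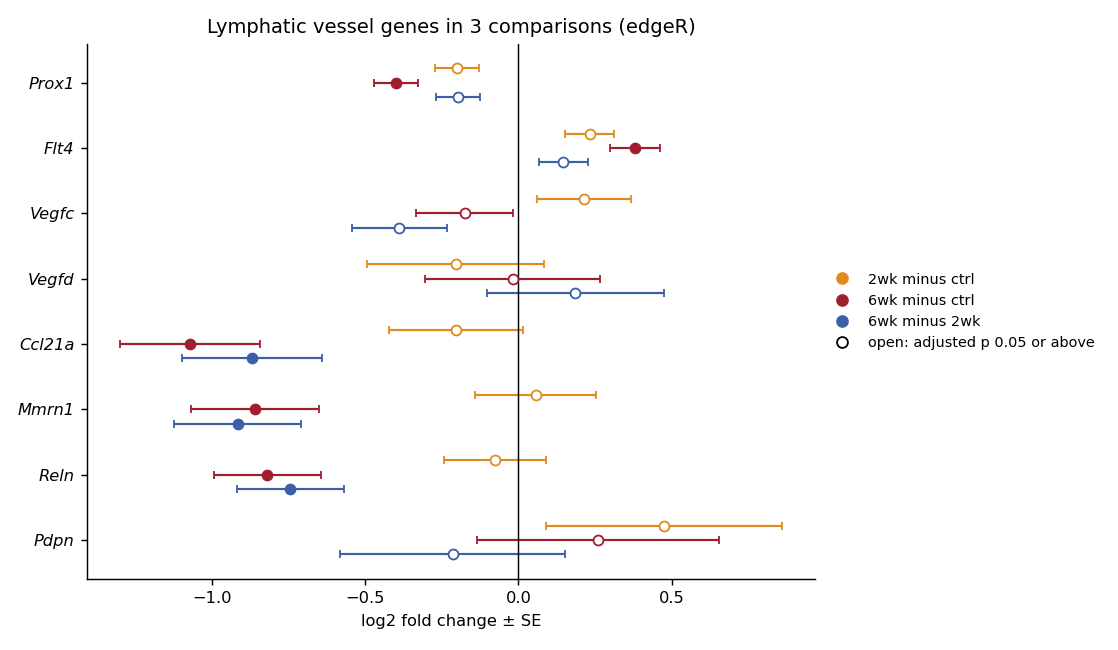
Log2 fold change ± SE of the 8 genes (horizontal axis) in each of the 3 comparisons by edgeR on TMM-scaled counts, with filled points for an adjusted p under 0.05. Mmrn1, Reln and Ccl21a lie left of 0 at 6 weeks against both other groups and Flt4 lies right of 0, while Prox1, filled at −0.40 against controls, turns to 0.02 in log2(TPM + 1).

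Levels of different genes were compared in TPM, which is scaled for transcript length. In controls the order of medians was Ccl21a (25.0), Prox1 (20.2), Flt4 (5.87), Vegfc (2.85), Mmrn1 (2.59), Vegfd (2.17), Reln (1.64) and Pdpn (0.668). Prox1 exceeded Flt4, and Flt4 exceeded Vegfc, in 18 of 18 mice and with ranges that did not overlap in controls. The other neighbours overlapped: Ccl21a was above Prox1 in only 3 of 6 controls and 8 of 18 mice. The receptor was thus more abundant per length than either ligand in these hearts, with 9.19 TPM in the 6wk group (median) beside 3.6 for Vegfc and 3.49 for Vegfd.

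**Figure D3:**
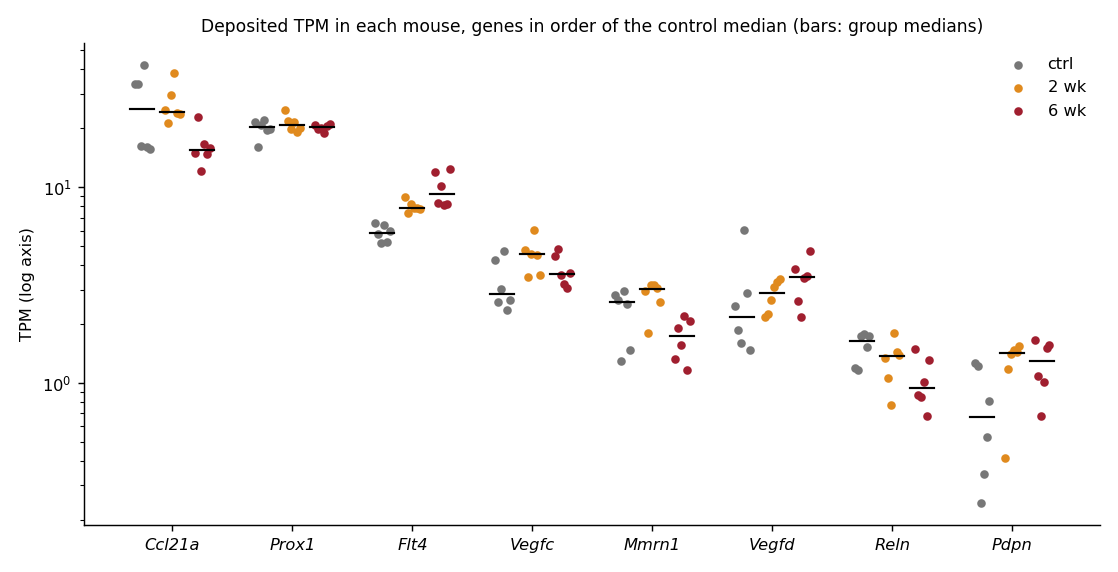
TPM of each gene in every mouse (logarithmic vertical axis), with genes in the order of their control medians, colors for the groups and bars for group medians. Ccl21a and Prox1 sit highest and overlap, Flt4 stands apart from Vegfc below it, and the Prox1 medians of 20.2, 20.7 and 20.4 are level across the groups.

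The ratio of Flt4 to a gene that fell does not change with a factor that scales all counts of a mouse. It was computed from the counts of each mouse after both directions were known, as a description. Flt4 to Reln was between 2.85 and 4.47 in controls (median 3.26), 2.72 and 6.11 in the 2wk group (median 4.47) and 6.27 and 10.5 in the 6wk group (median 7.19). All mice at 6 weeks lay above all others for this ratio of counts. In TPM, whose length scaling can differ between mice, that separation did not hold. Replicate 3 at 2 weeks had 8.25 TPM of Flt4 and 0.771 of Reln, beside 11.9 and 1.49 in replicate 1 at 6 weeks. Flt4 to Mmrn1 was between 3.45 and 7.33 in controls (median 3.76), 4.17 and 7.43 in the 2wk group (median 4.68) and 6.23 and 15.2 in the 6wk group (median 11.2). Flt4 to Ccl21a was between 1.26 and 3.27 in controls (median 2.25), 1.79 and 3.13 in the 2wk group (median 2.88) and 3.26 and 7.36 in the 6wk group (median 5.87). For these last ratios, the lowest mice at 6 weeks reached into the range of the controls.

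**Figure D4:**
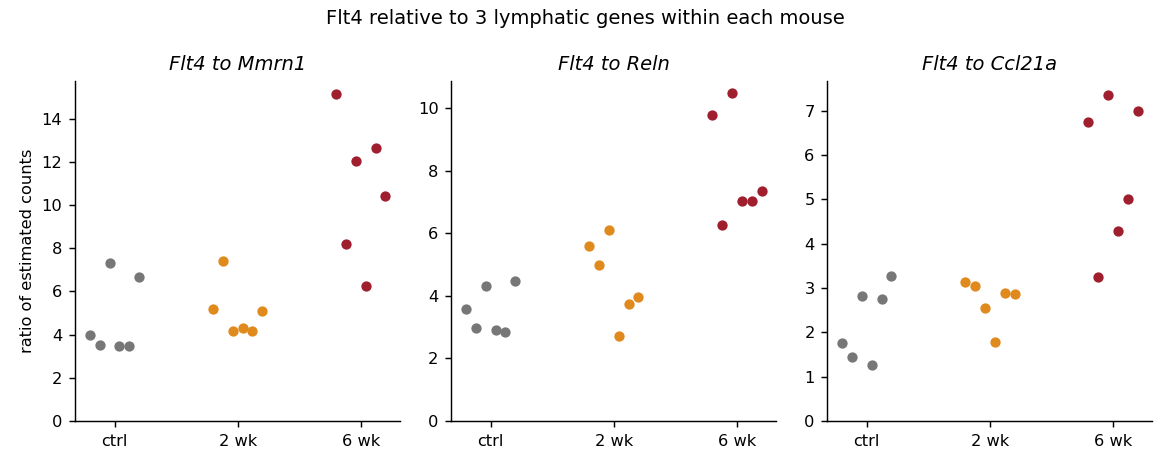
Ratio of the estimated counts of Flt4 to those of Mmrn1, Reln and Ccl21a (vertical axes, from 0) in every mouse by group. For Reln, the 6 mice at 6 wk lie between 6.27 and 10.5, above every control, whose highest is 4.47, and above the highest mouse at 2 wk, 6.11.

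Genes of VEGF-C processing, receptors and partners in lymphatic growth (the VEGF-C list) and further lymphatic genes were taken as lists of 23 and 15 genes. They were 36 in all with 2 in both, and all 36 were tested. At 2 weeks 8 were called (22.2%, background 5.02%), 5 higher and 3 lower (background 3.09% and 1.93%). At 6 weeks 15 were called (41.7%, background 25%), 7 higher and 8 lower (background 13.5% and 11.5%). From 2 to 6 weeks 5 were called (13.9%, background 5.33%), 3 higher and 2 lower (background 3.31% and 2.01%). With library size alone, the split at 6 weeks was 14 higher and 2 lower, at 2 weeks 7 and 1, and between the time points 4 and 0. The median of all genes tested was then itself 0.24, 0.15 and 0.11 in these comparisons. At 2 weeks 1789 of all genes were called with it, in place of 755, and their split by direction was not computed. Of the 8 genes that were lower at 6 weeks with TMM, Tek and Flt1 stayed called with library size alone. The median log2 fold change over the lists was 0.08, −0.02 and −0.05 in the 3 comparisons, beside 0.00, −0.02 and 0.00 over all genes tested.

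Among the 15 other lymphatic genes, 2 were higher at 2 weeks (background 3.09%), and 4 were higher and 1 lower at 6 weeks (background 13.5% and 11.5%). Nrp2, the co-receptor that binds VEGF-C beside VEGFR-3, rose from 86.1 ± 17.9 CPM to 121.7 ± 15.2 in the 2wk group and 124.5 ± 11.5 in the 6wk group (SD, n = 6). Its log2 fold changes were 0.50 and 0.53 (edgeR, adjusted p = 0.0189 and 0.00236). Piezo1, a mechanosensitive channel, rose by 0.49 and 0.57. At 6 weeks Sox18, a transcription factor upstream of Prox1 in the embryo, rose by 0.54 (edgeR, adjusted p = 0.00404), and Ackr2, a scavenger of inflammatory chemokines, rose from 2.75 ± 0.786 to 5.59 ± 0.515 CPM (SD, n = 6). The part of blood vessels in the rises of Nrp2, Piezo1 and Sox18 was not tested. Gata2, a transcription factor of lymphatic valves and blood vessels, fell by 0.31, and by library size alone had −0.04. Lyve1, the hyaluronan receptor of lymphatic capillaries and resident macrophages, had 8.17 ± 2.58, 10.3 ± 2.39 and 7.87 ± 3.42 CPM in the 3 groups (SD, n = 6) and was called in no comparison (edgeR, adjusted p between 0.426 and 0.9).

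The VEGF-C list of 23 genes also holds angiopoietins, their receptors, Flt1, Vegfa, Vegfb, Pgf and Adm, so it is wider than VEGF-C signaling. Of the 23 genes, 4 were higher and 3 lower at 2 weeks (background 3.09% and 1.93%). At 6 weeks 4 were higher and 7 lower (background 13.5% and 11.5%). Of the genes whose products cut VEGF-C or help to do so, 3 were lower at 6 weeks. Adamts3, the protease that activates VEGF-C, went from 8.02 ± 2.15 to 5.17 ± 0.887 CPM (SD, n = 6; log2 fold change −0.62, edgeR, adjusted p = 0.00919). Ccbe1, the cofactor of that protease, went from 6.68 ± 3.35 to 3.38 ± 1.90 CPM (SD, n = 6; −0.99, edgeR, adjusted p = 0.0409), and Pcsk5, a proprotein convertase, had −0.46 (edgeR, adjusted p = 0.0285). With library size alone none of these 3 calls held (edgeR, adjusted p = 0.0675, 0.0999 and 0.377). Furin, the convertase best known for VEGF-C, had −0.04, Adamts14 0.74 and Adamts2 0.28, none of them called at 6 weeks, and Pcsk7 was higher at 2 weeks by 0.26.

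Angpt2 and Pgf changed by more on the log2 scale at 6 weeks than any of the 8 genes. Angpt2, the angiopoietin released by activated endothelium, rose from 3.58 ± 0.578 CPM to 6.98 ± 1.5 in the 2wk group and 15.97 ± 3.41 in the 6wk group (SD, n = 6), and Pgf, the placental growth factor, from 3.59 ± 0.99 to 6.06 ± 1.21 and 13.6 ± 2.41. Their log2 fold changes at 6 weeks were 2.15 and 1.92 (edgeR, adjusted p = 1.53e-07 and 5.94e-07). Adm, a peptide with a known part in lymphatic growth, rose by 0.94. Vegfa, the main ligand of VEGFR-2, had −0.01 and Angpt1, the activating ligand of Tek, −0.11, and neither was called. The angiopoietin receptors Tek and Tie1 fell at 6 weeks by 0.75 and 0.44, Flt1 (VEGFR-1) by 0.67 and Vegfb, a ligand of VEGFR-1, by 0.37. Partners of the 8 genes made a shorter list: of 8 genes 5 were tested, 1 was lower at 6 weeks (Vldlr, background 11.5%) and none was called at 2 weeks (background 5.02%). With library size alone 3 were higher and 0 lower at 6 weeks. Clec1b, which encodes CLEC-2, Ccl19 and Dab1 were below the filter with at most 7 counts.

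**Figure D5:**
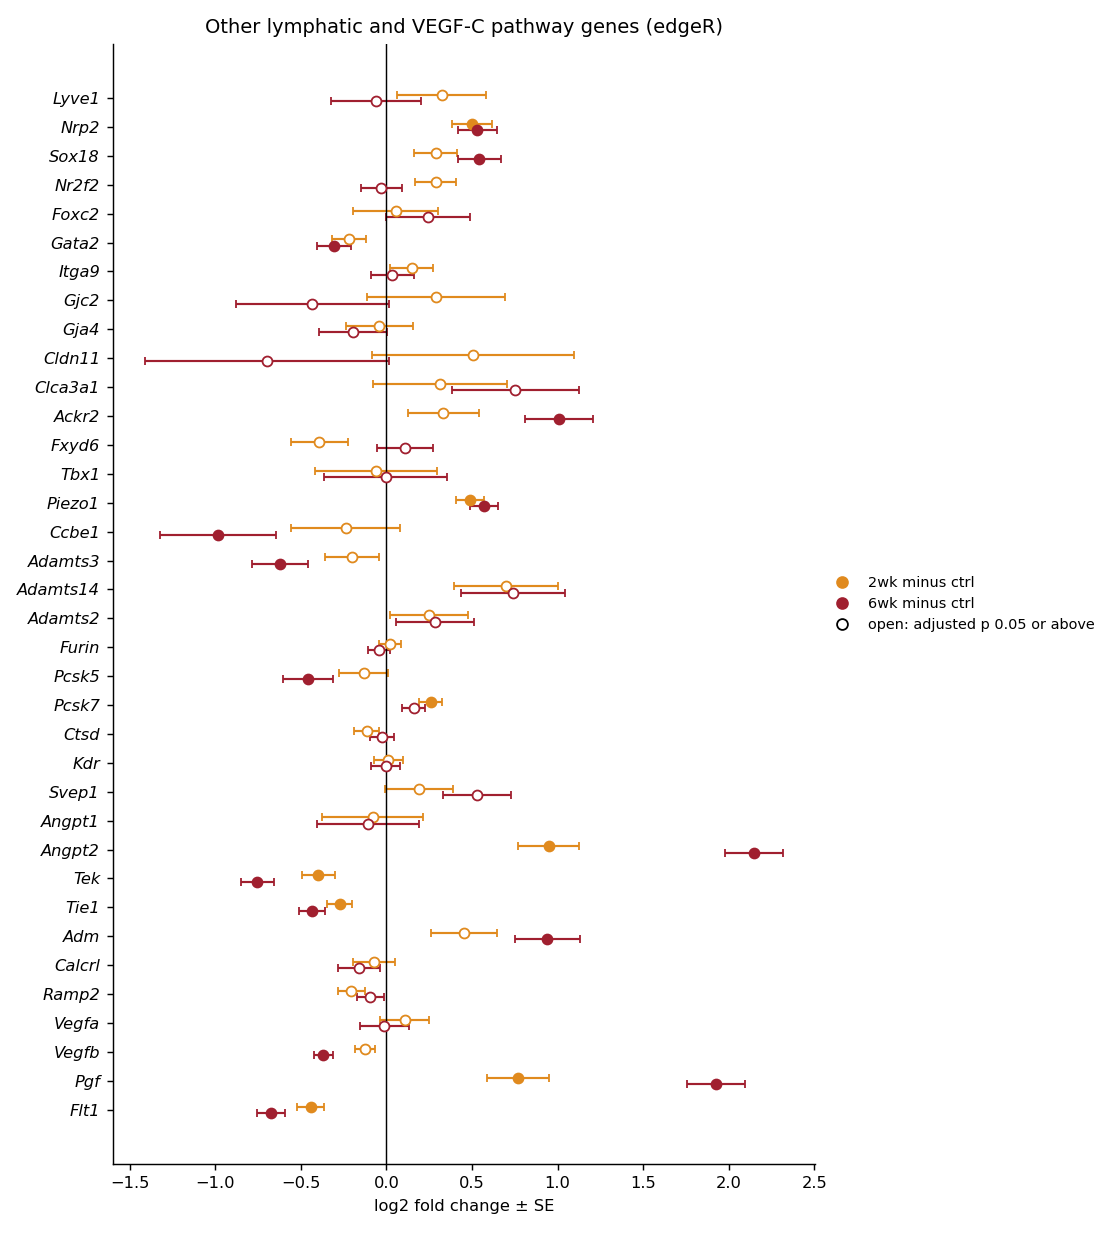
Log2 fold change ± SE (horizontal axis) of the 36 genes of the VEGF-C list and the further lymphatic list. Values are at 2 and 6 weeks against controls by edgeR on TMM-scaled counts, filled for an adjusted p under 0.05. Angpt2 and Pgf stand furthest right at 2.15 and 1.92, and of the genes filled on the left at 6 weeks only Tek and Flt1 stay called with library size alone.

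Within groups, the genes were compared pairwise over the 18 mice as deviations of log2 CPM from the group mean. Of 28 pairs, 6 had an unadjusted permutation p under 0.05 by Pearson's r, 4 by Spearman's rho and 3 by Pearson's r on log2(TPM + 0.1), and 0 passed after adjustment over the pairs in any of them. The largest Pearson's r was that of Ccl21a with Vegfc (Pearson's r = 0.65, permutation p = 0.0111, adjusted 0.12, and Spearman's rho = 0.47, permutation p = 0.0943, adjusted 0.435). Without the 2 mice farthest from the median of Ccl21a, r was 0.71. The largest Spearman's rho was that of Reln with Vegfd (rho = 0.68, permutation p = 0.00309, adjusted 0.0865, and Pearson's r = 0.57, permutation p = 0.00842, adjusted 0.12), and without the 2 mice farthest from the median of Reln its r was 0.72. Single mice were high in several genes at once: replicate 4 of the controls had the highest Ccl21a, Vegfc and Vegfd of its group, and replicate 4 at 2 weeks the highest Ccl21a, Vegfc and Reln. Replicate 2 at 6 weeks had the highest Ccl21a and Vegfc of its group.

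Among 12867 genes with a mean of at least 1 CPM, the 3 whose deviations were most like those of each gene over the 18 mice were named, by Pearson's r as a description. For Flt4 these were Trp53bp1 (0.91), Dctn5 (0.81) and Stard4 (0.81), and for Prox1 Tmem53 (0.81), Amz2 (0.79) and Tm2d1 (0.77). For Reln they were F13a1 (0.84), Pik3cd (0.83) and Emp3 (0.78), for Ccl21a Galns (0.82), Wasf3 (0.81) and Slc44a1 (0.80), and for Mmrn1 C2 (0.81), Gmfg (0.80) and Gbp3 (0.80). Those of Vegfd were Dpep2 (0.90), Cd14 (0.88) and Galnt16 (0.86), and those of Vegfc were Scin, Entpd2 and Stn1 (0.80, 0.80 and 0.79). Pdpn was followed by the row that shares its reads, then by Prdm2 (0.87) and Rapgef5 (0.82). None of the 8 was among the 3 best matches of another. The matches were picked as the highest of 12867 values and no p was computed, so such r can come from the choice alone.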

How the data were processed

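RNA-seq libraries of 18 mice were prepared with the KAPA RNA HyperPrep kit. STAR was the aligner, and Salmon 1.0 (GRCm38) and tximport gave values per gene, per the labels and the methods of the study. They deposited estimated counts, which need not be whole and were not normalized between mice, and TPM, which the authors' quantification scales for transcript length and depth. Rounded counts were tested with edgeR 4.0.16 (R 4.3.3) in 1 quasi-likelihood fit of 3 groups with TMM scaling, over genes that reached 0.23 CPM in 6 or more mice, and called at an adjusted p under 0.05. The SE is the log2 fold change divided by the square root of F, and 95% intervals use 15 residual degrees of freedom. Correlations used log2 CPM with a prior count of 2 and 100000 permutations within groups.

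The genes and lists were chosen with earlier results of these data known. Named genes are the 8 genes, the Ccl21a copies, up to 4 called genes with the smallest adjusted p per list and comparison, 10 pathway genes picked by name, and the 3 genes most like each of the 8. Some list genes outside this rule are named where a count is given. One gene of the nerve and Schwann cell list is not reported here and was left out of its sum.

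Mice were treated as unpaired, since same-numbered mice of different groups correlated only between −0.083 and 0.106. That cannot show whether mice shared a litter, which is not given for single mice. Coordinates are from GENCODE M21 and promoters from RefSeq, where each of the 8 genes was matched. Alternatives were DESeq2 1.42.0, limma 3.58.1 (voom with quality weights, and log2 TPM with a pseudocount of 1 or 0.1), other scalings, filters and thresholds, a replicate block, 2 groups alone and leaving out each mouse.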

Additional observations from a re-analysis of the deposited data

Results flagged for a closer look

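Within groups of 6 mice, 1 mouse stood far from the rest in 3 of the 24 combinations of gene and group examined (by the gap to its neighbour relative to the range of the group, Dixon's criterion at the 95% level), where chance gives about 1 in 20. Prox1 had 120.1 CPM in replicate 5 at 6 weeks post-IR, where the other mice had 94.9 to 99.3. Without that mouse the log2 fold change from 2 to 6 weeks was −0.25 (edgeR, adjusted p = 0.0418), where it was −0.20 with it (adjusted p = 0.116). Pdpn had 0.514 CPM in replicate 1 at 2 weeks, where the others had 1.68 to 2.06, and its row then held 7.5 counts. Ccl21a had 24.4 CPM in replicate 4 at 2 weeks, where the others had 15.1 to 17.9, and without that mouse the log2 fold change from 2 to 6 weeks was −0.74 and was no longer called.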

How the results depend on the processing

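The 5 calls at 6 weeks against controls held with DESeq2, limma's voom, DESeq2 size factors, both other filters, mitochondrial genes removed, the replicate block and 2 groups alone, and in each fit that left out 1 mouse. Library size alone gave 4 and TPM 3 (Flt4, Reln and Ccl21a) with either pseudocount. With a log2 fold change above 1 required, Ccl21a was the 1 gene left at 6 weeks, and 0 were left from 2 to 6 weeks. At 2 weeks 1 gene, Flt4, was called in place of 0 with library size alone, TPM or 2 groups alone (adjusted p = 0.0116, 0.0132 to 0.0164, and 0.045). Calls over all genes at 2 weeks then went from 755 to 1789 with library size alone, 2813 and 3026 in TPM and 667 with 2 groups alone. From 2 to 6 weeks 0 of the 3 calls were made in TPM, and library size alone kept 2, Mmrn1 and Reln. Leaving out 1 mouse gave 1 to 3 calls, with 1 without replicate 4 at 2 weeks or replicate 3 at 6 weeks.

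For the VEGF-C list and the further lymphatic genes together, a log2 fold change above 1 left 0 calls at 2 weeks. It left 3 against controls at 6 weeks and 2 from 2 to 6 weeks. Between the time points, no filter, TPM with either pseudocount and the replicate block each gave 3 in place of 5, and leaving out 1 mouse gave 2 to 7. At 2 weeks leaving out 1 mouse gave 5 to 9, with 5 without replicate 5 or 6 at 2 weeks. The replicate block changed no call among the 8 genes, and same-numbered mice correlated best with each other for 1 or 2 of 6.

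Uncalled values changed sign in TPM (pseudocount 1 and 0.1): Prox1 to 0.084 and 0.088 at 2 weeks, Ccl21a to 0.12 and 0.12, Vegfd to 0.12 and 0.19, and Pdpn to 0.015 and 0.052 from 2 to 6 weeks. At 6 weeks Vegfc went to 0.18 and 0.24 in TPM and 0.083 with library size, Vegfd to 0.31, 0.43 and 0.23, and the called Prox1 to 0.025 and 0.026 in TPM. Vegfd at 6 weeks also changed sign with DESeq2 (0.0040), voom (0.09046) and the replicate block (0.053), and Reln at 2 weeks with library size (0.072). Leaving out 1 mouse moved Mmrn1 at 2 weeks between −0.058 and 0.15, Reln between −0.23 and 0.011, Vegfd between −0.33 and 0.18, and Vegfd at 6 weeks between −0.14 and 0.37. With TPM pseudocount 0.1, the lost values from 2 to 6 weeks were −0.69 for Mmrn1, −0.31 for Reln and −0.73 for Ccl21a. In TPM the median of all genes at 6 weeks was 0.29 and 0.37. Minus the median gene of the same scaling, Vegfc at 6 weeks had −0.10 and −0.13 in TPM and −0.16 with library size. At 2 weeks Prox1 had −0.093 and −0.15 in TPM, Ccl21a −0.062 and −0.12 and Vegfd −0.056 and −0.046. Pdpn from 2 to 6 weeks had −0.10 and −0.095. These have the sign of the TMM fit, while Vegfd at 6 weeks had 0.024 and 0.062 in TPM and −0.011 with library size. The cause of the sign changes was not tested. Pdpn (6 to 69 counts with its duplicate row) is limited by depth.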
